A study of Pinus pinaster with 6 samples.

Results

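The transcripts described here come from maritime pine (Pinus pinaster) roots. Their level was lower in every library from ammonium-irrigated seedlings than in every library from water-irrigated seedlings. Their margin was among the widest within the limits on control values that are given below. One-month-old seedlings, grown in vermiculite with distilled water only, received 80 mL of water (C1, C2 and C3, the control libraries) or the same volume of 3 mM NH4Cl (N1, N2 and N3, the ammonium libraries), and roots were frozen 24 h later. No group received another nitrogen source, so ammonium was compared with water and not with another nitrogen salt. Poly(A) RNA was read by direct RNA sequencing (DRS), in which a nanopore reads the RNA molecule itself, and levels are given in CPM, the reads of a transcript scaled to the size of its library. In whole-root RNA, fewer cells of a type and less of an RNA per cell cannot be told apart.

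Among the names these transcripts carried were chaperones, BAG co-chaperones and ubiquitin enzymes, whose roles are given here as background, and no enrichment was tested. Small heat shock proteins hold unfolding proteins in solution, HSP90 and DnaJ proteins help them to refold, and BAG proteins are co-chaperones that bind HSP70 through a shared domain. Proteins that are not rescued are tagged with ubiquitin by a chain of activating (E1), conjugating (E2) and ligating (E3) enzymes and are then degraded. Other members were named for calcium signaling, in which calmodulin-like (CML) proteins and CBL-interacting protein kinases (CIPKs) act on calcium signals, and for immune receptors with a nucleotide-binding site and leucine-rich repeats (NBS-LRR), which sense pathogens inside plant cells.

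The members were chosen by their values in this same comparison, so their lower level under ammonium is a description and not a finding. A transcript was ranked if its control mean was between 10 and 400 CPM and its C3 value was below 1.5 times the higher of C1 and C2, which 17263 of 46658 transcripts met. The ranking used the lowest control value divided by the highest ammonium value plus 1 CPM, the 150 of highest rank were taken, and 19 of them were left out by their IDs, among them forms of an abundant calcium-binding protein. This left 131 members. Their ranking ratio ran from 1.70 down to 1.16, with a median of 1.22. Just inside the limit stood pp_179491, with 18.4, 20.7 and 19.2 CPM in C1 to C3 and 13.0, 14.9 and 14.8 CPM in N1 to N3, and pp_233409, with 12.3, 11.7 and 13.5 against 9.09, 7.89 and 5.88 CPM. Just outside it stood pp_184541, with 32.2, 31.9 and 32.0 against 26.6, 23.5 and 25.3 CPM, and pp_146235, with 87.5, 112 and 78.4 against 66.9, 40.5 and 45.3 CPM. The ratios on either side of the limit differ only in the third decimal, so the limit does not mark a gap in the data.

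By construction, the groups did not overlap for any of the 131 members. Over the 17263 ranked transcripts, 8.78% had every ammonium value below every control value, and over all 46658 transcripts 6.94% did, while 7.16% had every ammonium value above every control value. With limma on log2(CPM + 1), 3 of the 131 members were called lower at an adjusted p under 0.05 over all transcripts, beside 0.0300% of all transcripts (14 of 46658). With read numbers in place of CPM, edgeR's quasi-likelihood test called 22 members, beside 0.182% of all transcripts, and DESeq2 called 24, beside 0.137%. The choice of members used this contrast, so nothing is read from these counts.

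The libraries differed in depth. The recovered reads numbered 1270378 in C1, which made 1 read worth 0.767 CPM there, and 2947096 to 5416076 in the other 5 libraries, where 1 read was worth 0.178 to 0.325 CPM. In C1 the members rested on 13 to 323 reads (median 35), and 29 of them on fewer than 20. An exact Poisson 95% interval, which covers counting error only, put pp_73575, with 13 reads in C1, at 5.31 to 17.1 CPM there. The lower bound in C1 lay above the highest ammonium value for 73 of 131 members. For 16 members the intervals of all 3 control libraries lay above those of all 3 ammonium libraries. The ranking used these same values and the counts were not made for other transcripts, so they describe counting error only. Of the shoot markers matched by name (Rubisco small chain, chlorophyll a-b binding and photosystem proteins), 0 of 7 were at 0 in every library. Their summed level was 532 to 681 CPM in the control and 433 to 572 CPM in the ammonium libraries, but the list had no single direction. Its most abundant form, the chlorophyll a-b binding pp_87050, was at 407, 336 and 322 against 242, 308 and 334 CPM, control libraries first. The Rubisco small chain pp_154538 was higher under ammonium, at 23.0, 19.6 and 21.2 against 27.0, 27.7 and 31.4 CPM. The 12 aquaporin and root hair transcripts summed to 3493 to 4155 CPM in the control and 4073 to 4128 CPM in the ammonium libraries. The part of shoot RNA in the members' differences was not tested.

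The 131 members are not 131 independent genes. They fell into 76 runs of neighbouring IDs (gaps of 10 or less), of which 48 held 1 member and 28 held the other 83, and the annotation tied 129 of them to 88 unigenes. In 31 pairs within a run, covering 35 members, the 2 transcripts were within 10% of each other in every library on the CPM + 1 scale. A read may have been shared among such near-identical forms, so the split of reads between them is uncertain. A name that carries information was found for 97 members, and 34 had none.

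The members had control means of 10.1 to 238 CPM (median 26.8) and ammonium means of 4.27 to 168 CPM (median 15.7). The control mean was 1.28 to 2.59 times the ammonium mean, with a median of 1.64, and 17 members were above 2 times. On the log2(CPM + 1) scale the differences ran from -1.33 to -0.35 with a median of -0.67, and the middle of the distribution lay between -0.80 and -0.52 (quartiles). Over all transcripts the median difference was 0.0043, and over those that met the conditions it was -0.012.

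**Figure D1:**
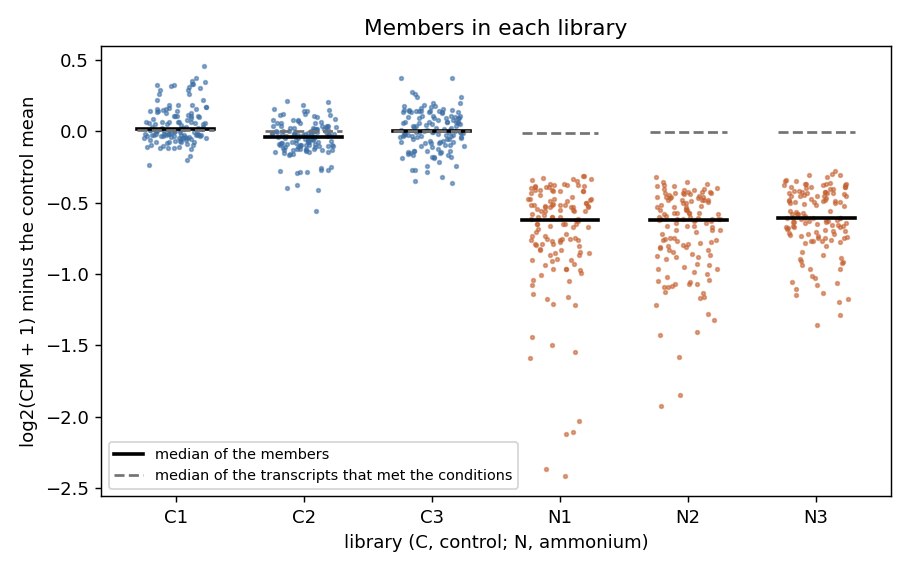
Each point is 1 of the 131 members in 1 library, as log2(CPM + 1) minus its mean over the 3 control libraries; black bars are medians over the members and dashed lines are medians over the 17263 transcripts that met the conditions. The member medians were -0.62, -0.63 and -0.61 in N1, N2 and N3, with the widest downward tail in N1.

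The median level of the members was alike in the 3 ammonium libraries, at 0.62 below the control mean on the log2 scale in N1, 0.63 below in N2 and 0.61 below in N3. Their summed CPM was 5789, 5577 and 5547 in C1, C2 and C3 and 3628, 3575 and 3817 in N1, N2 and N3. Within the control group, C1 and C3 each held the highest value for 53 members and C2 for 25. The lowest ammonium value was in N1 for 53 members, in N2 for 44 and in N3 for 34. Single members spread more than the medians, since the highest ammonium library was over 2 times the lowest for 9 members and within 1.2 times of it for 60.

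To read transcripts so chosen in libraries the ranking had not used, the rule was applied 9 times without 1 control and 1 ammonium library. Its condition on C3 was dropped where C3 was left out. Where C1 or C2 was left out, C3 was compared with the other of them alone. The transcripts that met the conditions, apart from the IDs left out, numbered 16451 to 17549. The chosen transcripts were then compared between the 2 libraries that had been left out. The rule then took 124 to 140 transcripts, of which 29 to 62 were among the 131 members. Of the transcripts chosen, 58.5% to 82.1% were lower in the ammonium library that had not been used, beside 48.4% to 50.9% of all transcripts that met the conditions. Their median difference on the log2 scale ran from -0.46 (C1 and N2) to -0.07 (C2 and N1), with a median over the 9 pairs of -0.24, beside -0.0081 to 0.014 for all that met the conditions. In all 9 pairs the chosen transcripts lay on the lower side, and in each their median was smaller in size than the -0.67 of the members in the libraries that chose them. The rule's conditions and the IDs it leaves out were set with earlier results of these data known, so the 2 libraries were not wholly unused. The pairs share libraries and the transcripts share reads, so this is a description without a test.

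**Figure D2:**
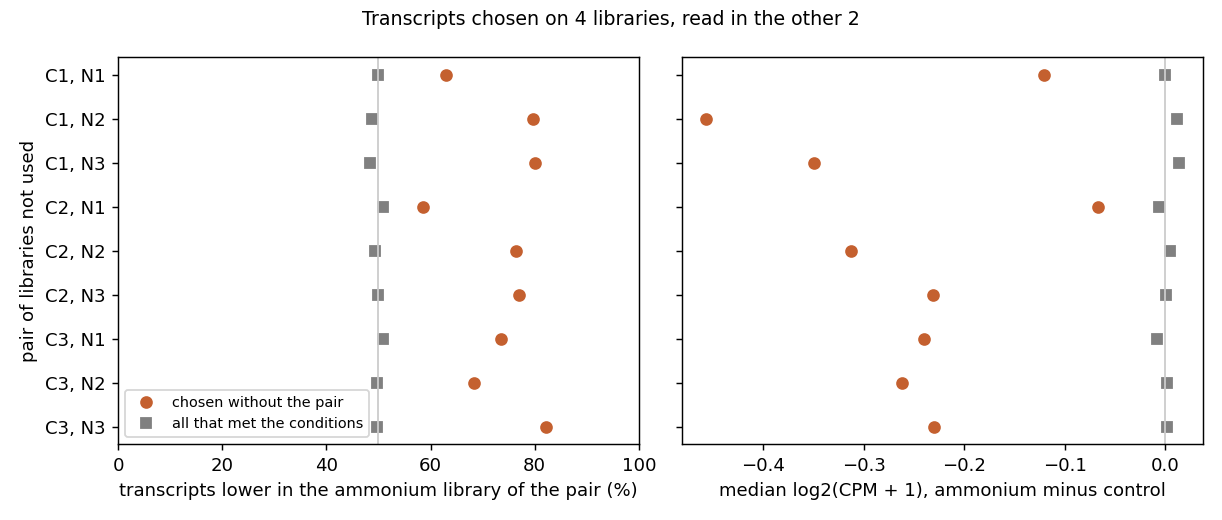
Each row is a pair of libraries that was not used to rank transcripts. The left axis is the share of transcripts lower in the ammonium library of the pair (%), the right axis is the median difference in log2(CPM + 1), circles are the 124 to 140 transcripts chosen on the other 4 libraries and squares are all that met the conditions. Circles lie at 58.5% to 82.1% and squares near 50%, and the circles are nearest to the squares in 2 of the 3 rows with N1.

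Sorted by name, the largest groups were ubiquitin and its enzymes with 12 members, transcription factors and chromatin proteins with 10, translation with 9, heat shock proteins and other chaperones with 8 and BAG proteins with 7. Group medians on the log2 scale ran from -1.05 in cell wall proteins and enzymes to -0.40 in translation. In cell wall members 3 of 6 were extensin forms of 1 run, and in translation 6 of 9 were forms of 1 run. The groups overlapped in their values, as the plot of log2 differences by function group shows.

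**Figure D3:**
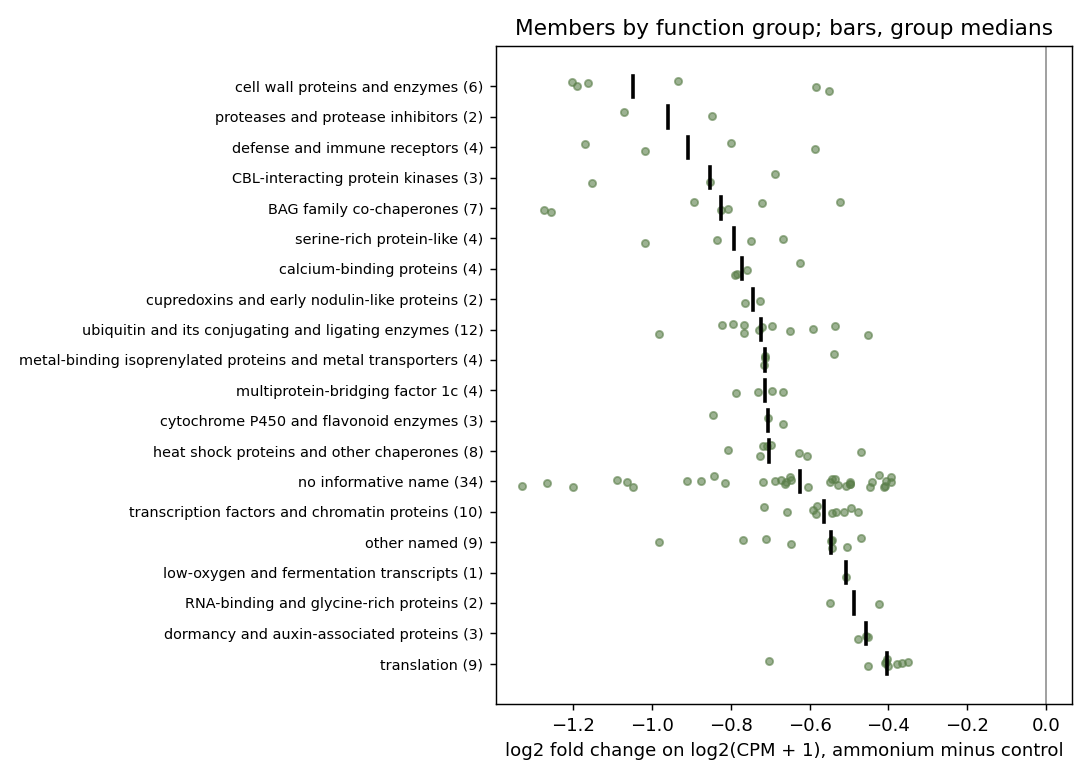
Each point is 1 member, placed by its log2 difference (ammonium minus control, on log2(CPM + 1)) and its function group, with the number of members in parentheses; black bars are group medians. Medians run from -1.05 for cell wall proteins and enzymes to -0.40 for translation, and the members without an informative name span -1.33 to -0.39.

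BAG co-chaperones had 7 members in 2 runs. The form of highest rank, pp_134946, named BAG family molecular chaperone regulator 6 with Arabidopsis BAG6 as its match, was at 74.4, 68.5 and 83.0 CPM in C1 to C3 and 47.4, 31.8 and 49.0 CPM in N1 to N3. Its mean was 75.3 ± 7.30 CPM in the control and 42.7 ± 9.53 CPM in the ammonium libraries (SD, n = 3), a ratio of 1.76, and N2 was the lowest library. The forms pp_134944 (40.2 ± 1.69 against 24.2 ± 3.99 CPM) and pp_134943 (67.7 ± 6.32 against 36.8 ± 9.56 CPM) of the same run were also lowest in N2, at 19.6 and 26.4 CPM. The largest ratios were in another run. Its form pp_117876 was at 26.1, 17.8 and 28.9 against 12.0, 5.54 and 12.1 CPM, and its form pp_117877 at 29.2, 13.9 and 22.7 against 9.42, 5.12 and 10.9 CPM. The ratio of means was 2.45 for the former and 2.59 for the latter, the widest of the 131 members, but the control libraries of pp_117877 themselves differed by 2.10 times. The annotation places pp_117876 and pp_134946 in the same unigene, so they may share reads.

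Heat shock proteins and other chaperones had 8 members in 6 runs. The class IV small heat shock protein pp_210120 was at 21.5, 21.5 and 19.0 CPM in C1 to C3 and 10.1, 13.2 and 13.2 CPM in N1 to N3, and pp_210118 and pp_210119 of its run had nearly the same values. A class I small heat shock protein, pp_206349, was at 39.1, 40.3 and 35.6 against 27.0, 24.7 and 22.8 CPM. Of the larger chaperones, the HSP90 form pp_134911 was at 87.5, 65.3 and 83.3 against 51.0, 39.5 and 51.9 CPM, a ratio of 1.66. Non-members with its description or Arabidopsis match, named after their values were seen, differed. The more abundant pp_95898 was at 371, 370 and 346 against 337, 385 and 381 CPM, a log2 difference of 0.018. The form pp_134912 was lower, at 57.5, 46.6 and 59.6 against 39.6, 28.6 and 39.6 CPM. The DnaJ 8 form pp_129455, named as a chloroplast J-protein that recruits HSP70, was at 39.9, 41.9 and 28.0 against 19.8, 19.8 and 21.0 CPM, so its ammonium values were tight and its control values were not. Log2 differences in the group ran from -0.81 to -0.47. The mitochondrial small heat shock protein pp_219378 and the HSP83 form pp_95896 completed it.

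Multiprotein-bridging factor 1c (MBF1c), a transcriptional coactivator that in Arabidopsis takes part in heat tolerance, had 4 members, all forms of 1 run and 1 unigene. The form pp_219164 was at 22.2, 20.7 and 22.5 CPM in C1 to C3 and at 9.09, 12.6 and 15.9 CPM in N1 to N3. The forms pp_219169, pp_219162 and pp_219170 had control means of 21.9 ± 1.04, 22.7 ± 0.846 and 19.3 ± 1.48 CPM and ammonium means of 13.0 ± 2.76, 13.8 ± 3.09 and 11.8 ± 2.11 CPM (SD, n = 3). All 4 were lowest in N1 and highest, among the ammonium libraries, in N3, as forms that may share reads would be.

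Among the 12 ubiquitin members in 6 runs, 4 were E2 forms of 1 run. Their descriptions differ only in a running number, and all match the same Arabidopsis gene, UBC23, so they are read here as forms of 1 E2 enzyme. The form pp_136833 was at 13.8, 13.3 and 15.9 CPM in C1 to C3 and 9.09, 5.97 and 8.20 CPM in N1 to N3, on 18 reads in C1. The putative polyubiquitin pp_237070 had the widest difference of the group, at 47.6, 36.0 and 31.8 against 12.3, 22.0 and 24.1 CPM, a log2 difference of -0.98. Ubiquitin 11 (pp_162099) was at 49.1, 36.2 and 36.2 against 27.9, 22.4 and 21.6 CPM. In both, C1 stood above the other control libraries, and no ammonium value reached the lowest control value. The RING-type E3 ligase pp_58630, of a class that passes ubiquitin to the target protein, was at 15.3, 15.8 and 23.4 against 9.42, 11.1 and 10.9 CPM. The most abundant member of the group, picked out after its values were seen, was pp_153161, named ubiquitin-40S ribosomal protein S27a, a fusion that is cut into ubiquitin and a ribosomal protein, with 168 ± 11.6 against 123 ± 5.76 CPM. Not every transcript with a ubiquitin match was lower: pp_205729, not a member and named after its values were seen, matched the Arabidopsis gene described as related to ubiquitin 1, as does the member pp_153166, and was at 4.60, 9.41 and 7.07 CPM in the control and 14.3, 10.7 and 9.98 CPM in the ammonium libraries.

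Calcium-binding proteins had 4 members. The CML25 forms pp_152809, pp_152810 and pp_152812 were all at 14.6 CPM in C1, between 15.1 and 15.3 in C2 and between 14.8 and 15.0 in C3, and at 7.14 to 7.47, 7.68 and 10.2 CPM in N1, N2 and N3. They belong to 1 unigene and count as 1 observation. A further calcium-binding protein, pp_108444, was at 36.8, 40.3 and 32.7 against 25.7, 21.8 and 22.6 CPM, and its ID lies beside those of calcium-binding forms that were left out. Of the CIPKs, kinases that in plants are switched on by calcineurin B-like calcium sensors, pp_91958 was at 10.7, 7.98 and 14.1 against 4.22, 4.48 and 4.10 CPM. Its ratio of means was 2.57, with ammonium values within a span of less than 1 CPM and control values that differed by 1.77 times. The CIPK forms pp_236381 and pp_91963 were at 25.3 ± 4.79 against 15.2 ± 1.11 CPM and at 27.0 ± 4.10 against 14.6 ± 3.28 CPM (SD, n = 3).

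Transcription factors and chromatin proteins had 10 members in 5 runs, with log2 differences of -0.72 to -0.48. A NAC-domain transcript, pp_95907, was at 19.2, 13.7 and 13.5 CPM in C1 to C3 and 8.77, 9.38 and 8.56 CPM in N1 to N3, and 3 more forms of its run were members. The chromatin remodeling transcript pp_155454 matched Arabidopsis CHR42, a relative of proteins that take part there in RNA-directed DNA methylation, and was at 13.0, 14.3 and 13.7 against 7.47, 9.17 and 8.38 CPM. Of the rest, pp_153307, named for TBP-associated factor 8 of the general transcription machinery, had close values in both groups, at 16.9, 17.4 and 17.4 against 11.4, 12.2 and 12.3 CPM. The AT-hook transcript pp_236245, of a family that binds AT-rich DNA, was at 29.9, 27.8 and 34.2 against 21.1, 20.9 and 18.0 CPM. None of the 10 members of this group was lowest in N2.

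Defense-related names covered 4 members. The CC-NBS-LRR form pp_185734 matched Arabidopsis ADR1-like 1, a helper receptor that relays signals from other immune receptors, and was at 14.6, 14.3 and 17.4 CPM in C1 to C3 and 8.77, 4.48 and 6.24 CPM in N1 to N3. Its neighbour pp_185735 (15.3, 17.4 and 19.9 against 11.0, 5.97 and 8.02 CPM) and the NBS-LRR form pp_151956 (25.3, 23.1 and 29.2 against 16.9, 11.7 and 15.0 CPM) share its unigene. All 3 were lowest in N2 and highest among the ammonium libraries in N1. Defensin 5.1 (pp_92124), a small antimicrobial peptide, had a narrower difference at a higher level, 81.3, 88.0 and 94.3 against 51.6, 56.5 and 67.2 CPM. A neighbour with the same name that is not a member, pp_92119, went the other way, at 19.2, 25.4 and 21.9 CPM in C1 to C3 and 40.3, 36.3 and 34.8 CPM in N1 to N3, a log2 difference of 0.73. The neighbours pp_92115, pp_92117, pp_92120 and pp_92121, which have no name, were also higher in every ammonium library than in every control library, with log2 differences of 0.50 to 0.65. The defensin name thus had no single direction, and these neighbours are named here after their values were seen.

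Early nodulin-like proteins, copper-protein relatives attached to the outside of the plasma membrane, gave 2 members from separate runs. The transcript pp_169376 was at 35.3, 40.1 and 40.2 CPM in C1 to C3 and at 22.4, 20.9 and 23.5 CPM in N1 to N3. The transcript pp_136817 was at 33.8, 22.3 and 26.5 against 15.3, 16.6 and 16.2 CPM. The former was tight in both groups, with 38.5 ± 2.80 against 22.3 ± 1.32 CPM, whereas C1 stood above the other control libraries for the latter.

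Cell wall members numbered 6 in 4 runs. The extensin-2/proline-rich form pp_145389, a structural wall glycoprotein by name, was at 36.1, 27.2 and 23.4 CPM in C1 to C3 and 5.84, 15.6 and 17.5 CPM in N1 to N3. The forms pp_145391 and pp_145392 were within 10% of it in every library. The N1 value was far below the other ammonium values. The beta-1,3-glucanase pp_245686, of a class of enzymes that degrade callose and fungal walls, went the other way among the ammonium libraries, with 13.6 CPM in N1 and 7.25 and 6.60 CPM in N2 and N3 against 17.6, 17.8 and 17.2 CPM in the control. The transcripts described as pectinesterases match, in Arabidopsis, the superfamily of invertase and pectin methylesterase inhibitors, so the name does not settle whether they encode an enzyme or its inhibitor. Of these pp_181080 was at 13.0 ± 1.15 against 8.36 ± 0.358 CPM and pp_179738 was at 26.8 ± 4.12 against 17.9 ± 1.51 CPM (SD, n = 3).

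Proteins with a heavy metal-associated domain, which in other plants bind metal ions and carry a lipid anchor, had 4 members in 2 runs, all lowest in N1. The transcript pp_252794 was at 39.1, 37.6 and 35.3 CPM in C1 to C3 and 17.5, 24.3 and 26.2 CPM in N1 to N3, and pp_108441 was at 43.0, 40.1 and 40.2 against 17.2, 26.2 and 33.0 CPM. Their control values were close together, so the spread lay on the ammonium side. The serine-rich protein-like transcripts, which match 1 Arabidopsis gene of a role not given in the annotation, also had 4 members in 2 runs. Of these pp_112037 had the highest rank of any member with a name, at 19.9, 15.3 and 14.6 against 7.47, 7.25 and 8.20 CPM, a ratio of means of 2.18 and a log2 difference of -1.02 with a standard error of 0.18. The forms pp_213786, pp_213798 and pp_213790 had ratios of 1.82, 1.71 and 1.62.

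**Figure D4:**
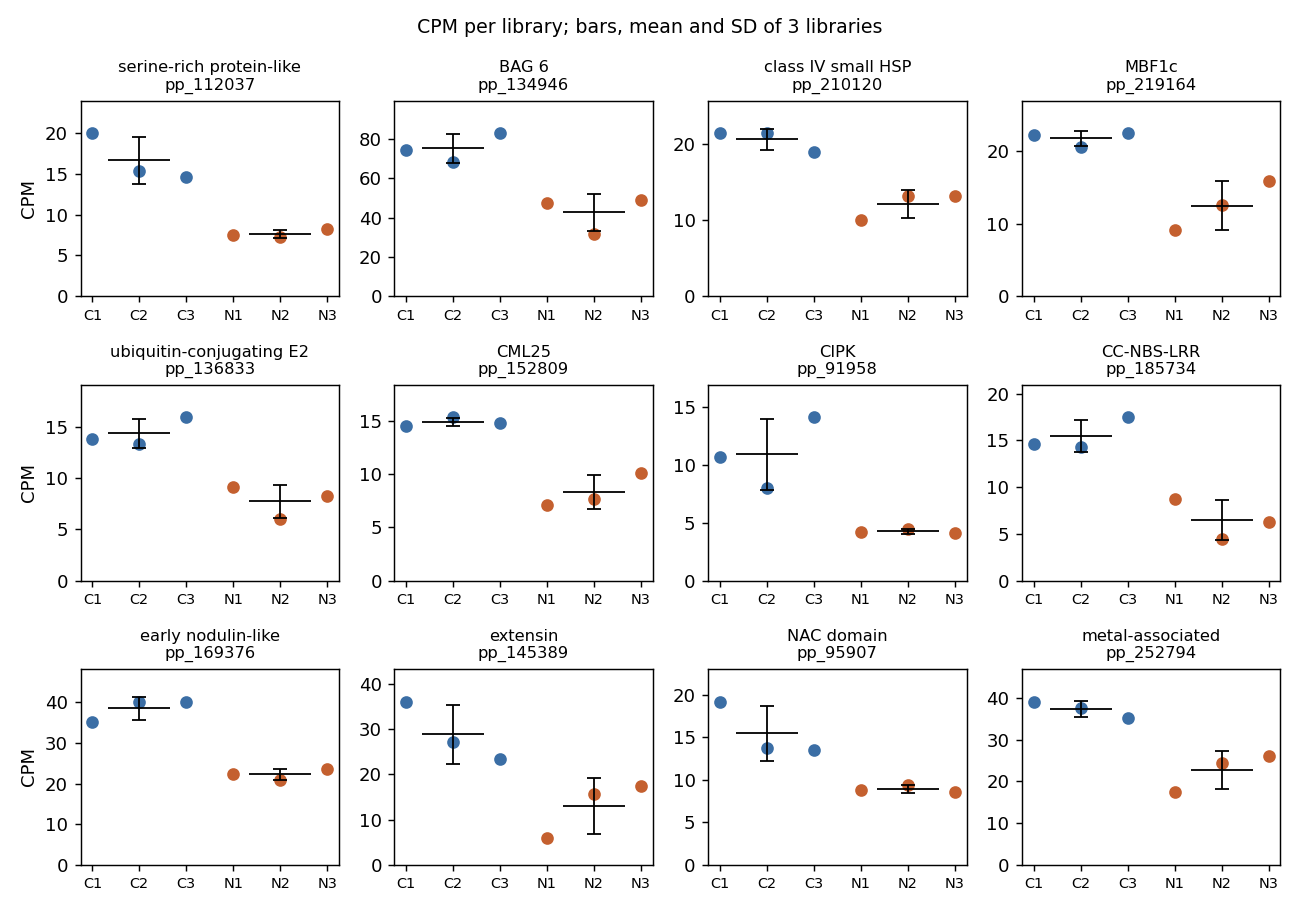
Points are CPM in each library (C1 to C3 control, N1 to N3 ammonium) for 1 transcript of each of 12 kinds, with horizontal bars for the group mean and error bars for the SD of 3 libraries; each vertical axis starts at 0. In all 12 panels every ammonium point lies below every control point, as the choice of members requires, and the ammonium spread ranges from under 1 CPM in pp_91958 to 5.84 to 17.5 CPM in pp_145389.

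Translation-related members numbered 9 in 3 runs and had the smallest group median, -0.40 on the log2 scale. In 1 run and 1 unigene, 6 forms matched the Arabidopsis beta subunit of initiation factor 2, which brings the initiator tRNA to the ribosome. Of these pp_245938 was at 45.3, 45.8 and 53.0 CPM in C1 to C3 and 36.4, 31.8 and 36.4 CPM in N1 to N3, and pp_245935 at 66.7, 63.2 and 62.9 against 51.6, 45.6 and 51.9 CPM. The S8e-family form pp_105048 had the smallest log2 difference of all members, -0.35, for which it was picked out, at 71.3, 70.8 and 83.7 against 60.1, 57.2 and 58.7 CPM. The transcript pp_185327 was named elongation factor 1-alpha after an algal sequence and was at 26.9, 19.0 and 16.8 against 11.7, 13.4 and 11.6 CPM. Non-members with its description or Arabidopsis match, named after their values were seen, had no single direction. The far more abundant pp_67823 was at 1317, 1340 and 1176 against 1288, 1345 and 1379 CPM. The neighbour pp_185330 was lower, at 9.21, 11.3 and 18.1 against 1.30, 4.69 and 4.28 CPM.

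Of the members named for metabolism, pp_73575, a D-3-phosphoglycerate dehydrogenase that opens the plastid route to serine, was at 9.97, 9.41 and 11.5 CPM in C1 to C3 and 6.17, 4.90 and 3.39 CPM in N1 to N3. Next to it, transcripts named for a methyltransferase (pp_197146), a glycosyltransferase (pp_148067) and a pentatricopeptide repeat protein (pp_212205) were at 11.1 ± 1.65, 10.4 ± 1.34 and 12.6 ± 0.757 CPM in the control and 6.15 ± 1.16, 6.24 ± 0.626 and 8.82 ± 0.119 CPM in the ammonium libraries. These are among the least abundant members, at 13 to 17 reads in C1. Non-members with the description or Arabidopsis match of pp_73575, named after their values were seen, had overlapping groups. The more abundant pp_73576 was at 21.5, 25.2 and 23.9 against 17.2, 24.7 and 23.9 CPM, a log2 difference of -0.11. The form pp_73572 was at 16.1, 15.3 and 13.3 against 14.3, 13.6 and 15.0 CPM, a log2 difference of -0.05. Cytochrome P450 forms, oxygenases of specialised metabolism, were pp_128902 (22.1 ± 1.38 against 13.7 ± 2.45 CPM) and pp_125273 (11.8 ± 0.285 against 6.27 ± 1.92 CPM). A 2-oxoglutarate-dependent oxygenase, pp_197526, was at 11.9 ± 1.98 against 6.84 ± 0.273 CPM. Non-members sharing a P450 description or match, named after their values were seen, had no single direction. The more abundant pp_216512, which shares that of pp_128902, was at 279, 278 and 160 against 303, 262 and 279 CPM. The form pp_125276, which shares that of pp_125273, was lower, at 5.37, 4.91 and 6.85 against 2.92, 3.41 and 2.85 CPM.

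The proteases were the vignain-like cysteine protease pp_68991, with 17.6, 13.7 and 10.4 against 7.14, 7.46 and 6.77 CPM, and the aspartic protease pp_137962, with 13.8, 13.5 and 11.0 against 3.57, 5.76 and 8.02 CPM. The aluminum-induced proteins, whose description also calls them auxin down-regulated, were more abundant, with pp_123491 at 153, 176 and 150.2 against 111, 118 and 113 CPM and pp_123490 and pp_123492 of its run at ratios of 1.38 and 1.37. They rested on 199 to 254 reads in C1, and all control intervals lay above all ammonium intervals, a separation that the choice of members favoured. RD22 (pp_79724), a BURP-domain protein known in Arabidopsis as a dehydration-responsive transcript, was chosen for mention after its values were seen, as the member of highest level, with 248, 218 and 249 against 149, 176 and 179 CPM. The 2 members named for RNA binding were pp_148485 and pp_179491, with ratios of 1.49 and 1.36. Non-members with the description or match of pp_148485, named after their values were seen, had no single direction. The form pp_145646 had a log2 difference of 0.021 with overlapping groups, and pp_148483 was lower, at -0.53. The annotation of pp_227418 is contradictory, naming an oomycete telomerase component and matching Arabidopsis alternative oxidase 1A, so its values of 30.7, 29.9 and 30.5 against 22.4, 18.8 and 22.1 CPM are given without a function.

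The 34 members without an informative name included 6 of the 10 members of highest rank and all 3 members that limma called. The transcript pp_92456 was at 24.6, 29.0 and 34.5 CPM in C1 to C3 and 12.7, 13.4 and 13.4 CPM in N1 to N3, a ratio of 2.23. The transcript pp_227398 was at 46.8, 43.8 and 44.4 against 27.0, 17.9 and 19.8 CPM, and the more abundant pp_145075 at 193, 218 and 209.8 against 121, 118 and 137 CPM. These 3 are the members that limma called, with log2 differences of -1.09, -1.05 and -0.72 and adjusted p of 0.0254, 0.0263 and 0.0254, in a contrast that had already chosen them. The transcripts pp_68322 (36.1, 33.8 and 40.6 against 12.3, 13.0 and 22.6 CPM), pp_233411 (15.3, 16.6 and 18.8 against 9.74, 10.02 and 7.84 CPM) and pp_58538 (20.7, 18.6 and 18.1 against 12.7, 10.9 and 11.4 CPM) completed the named set, of which pp_68322 shares its unigene with the BAG form pp_134943. The widest log2 difference of all members, -1.33, was that of pp_84976, named after its values were seen, at 25.3, 18.2 and 25.0 against 3.57, 10.9 and 14.3 CPM. As in the extensins, the N1 value of pp_84976 stood far below the other ammonium values.

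The members thus shared a direction but not a pattern among the ammonium libraries. Set against the mean of the 3 ammonium libraries, the median N2 level was 0.743 of it in BAG proteins, 0.761 in defense names and 0.865 in ubiquitin and its enzymes, and 6 of 7, 3 of 4 and 7 of 12 members of these groups were lowest in N2. The median N1 level was 0.724 of the mean in metal-binding proteins, 0.733 in cell wall members and 0.824 in MBF1c, and 4 of 4, 3 of 6 and 4 of 4 members were lowest in N1. The medians of transcription factors and chromatin proteins lay between 0.975 and 1.04 in all 3 libraries. Since forms of 1 run may share reads, the lines within a group are not independent, and the part of depth, of which N1 had the least, in these patterns was not tested.

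**Figure D5:**
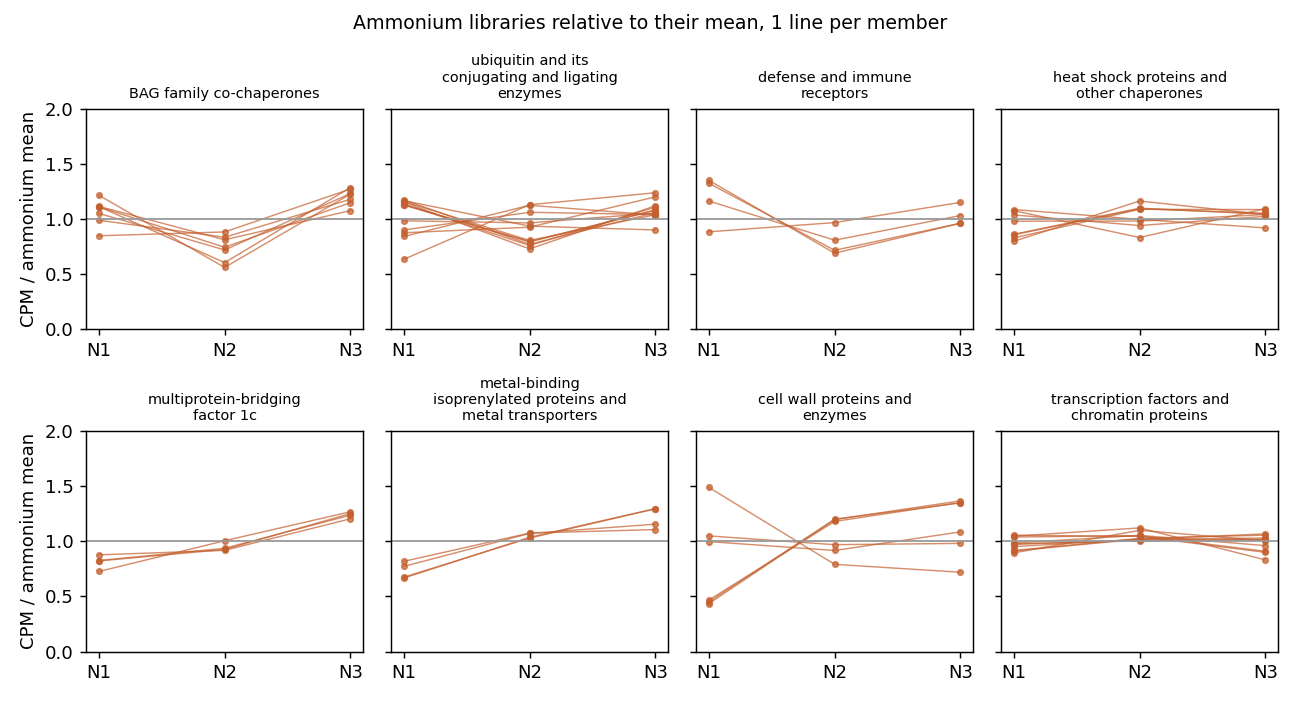
Each line is 1 member, with its CPM in N1, N2 and N3 divided by its mean over these 3 libraries, in 8 function groups. BAG, defense and some ubiquitin lines dip in N2 (medians of 0.743, 0.761 and 0.865), metal-binding and MBF1c lines and the extensins are lowest in N1, and the medians of transcription factors and chromatin proteins lie between 0.975 and 1.04.

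Transcripts of the same kinds that the rule did not take were read as context. The wider lists used annotation tables of the study that were not ordered by expression, which named 1859 measured transcripts, 6 of them members. Of 55 heat shock and chaperone transcripts there, none a member, 35 had a difference below 0 with a median of -0.06 on the log2 scale. By limma, 6 were lower and 0 higher at an unadjusted p under 0.05. At this level 4.58% of all transcripts were lower and 4.10% higher. Every ammonium value lay below every control value for 11 of the 55, beside 6.94% of all transcripts. The groups were apart in this way for 11 of 53 RNA-binding, 7 of 36 low-oxygen and 9 of 182 translation transcripts. They were so for 5 of 53 transcription factor, 4 of 50 ubiquitin and 2 of 36 defense transcripts. Of 50 ubiquitin-related transcripts that were not members, 20 were below 0 with a median of 0.06, and 3 were lower and 1 higher at an unadjusted p under 0.05. Of 53 transcription factor and chromatin transcripts, 32 were below 0 with a median of -0.05, 4 lower and 1 higher at that level. Of 182 translation transcripts, 58 were below 0 with a median of 0.06, with 5 lower and 12 higher at that level. In these 4 lists limma called 0 transcripts after adjustment, and edgeR and DESeq2 on the recovered reads also called 0. Of 53 RNA-binding and glycine-rich transcripts, 36 were below 0 with a median of -0.08, 11 were lower and 0 higher at an unadjusted p under 0.05, and DESeq2 called 4 lower where limma and edgeR called 0. Of 36 low-oxygen and fermentation transcripts, 26 were below 0 with a median of -0.19, 10 were lower and 2 higher at that level, and edgeR called 2 lower where limma and DESeq2 called 0. Of 36 defense transcripts, 14 were below 0 with a median of 0.09, 4 were lower and 5 higher at that level, and edgeR and DESeq2 each called 1 lower and 1 higher. The calcium-binding list held only pp_108445 and pp_108458, with log2 differences of -0.88 and -0.97 and a median of -0.93. Both were called lower by limma, edgeR and DESeq2. They are forms of the abundant calcium-binding protein whose IDs the rule names to be left out, so they are no independent context. The other lists were not cleared of the IDs that the rule leaves out either. Those IDs include the glycine-rich RNA-binding form pp_211512 and the alcohol dehydrogenase pp_203818. How many of them the lists held was not counted, so these lists are not fully independent context. The list medians other than that of the calcium-binding pair lay between -0.19 and 0.19 where a list held more than 1 transcript, and the lists do not speak to whole families, since the tables annotate only some of the transcripts.

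Transcripts whose ID lies within 10 of a member but which were not members numbered 870. Of these, 60.5% had a difference below 0, beside 48.9% of the other 45593 transcripts, and 18.2% had every ammonium value below every control value, beside 6.37%. Neighbouring IDs often belong to forms of 1 gene, which may share reads with the member, so these transcripts are no independent support.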

How the data were processed

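Maritime pine root poly(A) RNA was sequenced by DRS in 6 libraries, 3 irrigated with water and 3 with 3 mM NH4Cl, and samples were grouped by their labels. After quality filtering and minimap2 alignment to the root transcriptome, the authors deposited edgeR CPM values for the 46658 transcripts that reach 2 CPM in 2 or more libraries. Neither tool versions nor a counting program are stated in the sources used here. Divided by the value of 1 read (0.178 to 0.767 CPM), 100% of the values of every library came out whole, within 1e-06, so reads could be recovered.

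The members and function lists were chosen with earlier results of these data known. Names came from the study's annotation tables, whose values were not used, and the longest of these is ordered by differential expression in these libraries and was read only in part, so changed transcripts are more often named. Function groups follow word patterns, revised after the members were listed. Named transcripts were, in each group, up to 4 of highest rank with distinct runs first, and the 6 of highest rank without a name. Exceptions are marked.

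Differences came from limma 3.58.1 (lmFit, eBayes with a trend) on log2(CPM + 1), adjusted by Benjamini-Hochberg over 46658 transcripts, in R 4.3.3. A fold change on this scale understates that of low transcripts. The alternatives tried were a pseudocount of 0.25 or 4 CPM, a minimum of 10 CPM in 3 libraries, TMM, quantile normalization, no trend, the replicate number as a block, each library left out, and edgeR 4.0.16 and DESeq2 1.42.0 on recovered reads. Reading transcripts in libraries that the ranking had not used, leaving out C1 and N1, and the order of the rule's steps were added after the results were seen. The scripts were tested on simulated data. The study's methods state that the experiment was repeated independently, but the labels do not say which libraries shared a repeat. The p-values therefore measure the spread between these libraries.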

Additional observations from a re-analysis of the deposited data

How the results depend on the processing

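The difference of each of the 131 members stayed below 0 under every alternative run, which the choice of members largely fixes. Membership was less stable. Of the 131, 112 stayed members with 0.25 CPM in place of 1 CPM added in the rule, 71 with 4 CPM, 114 without the condition on C3, and 53 to 91 when 1 library was left out, while 31 stayed members whichever single library was left out. The run without C3 had no condition on C3. Without C1 and N1, 29 of 131 stayed members. Leaving out the IDs before the ranking would have given 150 members.

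The median log2 difference of the members was -0.67, moved to -0.57 with a pseudocount of 4 CPM and to -0.60 without C1 and N1, and ran from -0.69 to -0.62 when 1 library was left out. Its other alternatives moved it by less than the spread between libraries. The count of members called, 3 in the main fit, was 6 with a pseudocount of 4 CPM, 5 with quantile normalization, 0 without a trend (and 0 of all transcripts), 22 by edgeR, 24 by DESeq2, which gave 25 members no adjusted p, and 26 without C1 and N1. It ran from 0 without C2 or without N2 to 11 without N1, and was 1 without N3. Of all transcripts, 14 were called lower in the main fit, 18 with a pseudocount of 4 CPM and 17 with quantile normalization. By edgeR 85 were, by DESeq2 64 and with the replicate block 38. The number was 50 without N1, 27 without C1, 4 without N3, 3 without N2, 0 without C2 and 244 without C1 and N1. The cause of these shifts was not tested, beyond the smaller number of libraries.

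With the replicate block, 9 members were called. The deviations of same-numbered libraries from their group means had correlations of -0.0024, 0.056 and -0.0085 over all transcripts. Differently numbered pairs had -0.039 to 0.037. Counting error enters every deviation, so these values cannot tell whether same-numbered libraries shared an experiment. For the 70 named transcripts, 1037 of 1046 alternative values lay within the spread between replicates of the main value, 9 moved further and 0 changed sign, and the filter at 10 CPM in 3 libraries left out 4 of them. Depth limits the low members, above all in C1.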

Other observations

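The conditions of the rule kept out transcripts whose ranking ratio was as high as that of the members. The condition on C3 kept out 19 of these, a control mean above 400 CPM kept out 16, a control mean under 10 CPM 38, and both kinds of condition 4. They are named here after their values were seen.

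The widest differences among those kept out by C3 were larger than any among the members. Pyruvate decarboxylase 2 (pp_78343), which turns pyruvate into acetaldehyde in ethanolic fermentation, was at 6.14, 9.61 and 28.9 CPM in C1 to C3 and 0.974, 1.92 and 1.60 CPM in N1 to N3, so C3 was far above the other control libraries. Early nodulin-93 forms made up a run of their own, of which pp_231922 was at 38.4, 21.3 and 69.3 against 3.90, 11.9 and 13.4 CPM. In both the groups did not overlap, but the control libraries themselves differed by more than 3 times. The log2 differences were -2.41 and -2.03.

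Among those kept out for their level, the transcript pp_199936, described as a disease resistance protein, had 3657, 3525 and 3774 CPM in C1 to C3 and 2645, 2782 and 2632 CPM in N1 to N3. A glycine-rich RNA-binding protein form (pp_197349), of a family that binds RNA in stress and clock responses, was at 1043, 943 and 1138 against 576, 782 and 781 CPM, with N1 lowest. A zinc finger A20 and AN1 stress-associated form (pp_203258) was at 449, 445 and 468 against 345, 361 and 373 CPM, with values close together in both groups. Their log2 differences were -0.44, -0.56 and -0.34.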
